A study of Homo sapiens with 24 samples.

Results

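The response described here is that of MIR210HG-KO cells to low oxygen, measured as 4 libraries of MIR210HG-KO cells kept at 1% oxygen for 24 h against 4 libraries of the same cells kept at 21% oxygen. These 8 libraries, of 24 in the series, were chosen by their column names, which give oxygen level, genotype and a replicate number, and the low oxygen and normoxia tables were joined on the gene identifier. The cells are HEK293T, a human embryonic kidney line that carries adenoviral genes and the SV40 large T antigen. All groups were grown in high-glucose DMEM with heat-inactivated fetal serum and antibiotics, and total RNA was taken with TRIzol and made into NEBNext Ultra RNA libraries. The other groups, used only where this response is set against another genotype's, are WT and MIR210-KO cells at the same oxygen levels, with 4 libraries each. In all of them low oxygen lasted 24 h. Whether each knockout line is 1 clone or a pool is not in the labels, nor that the 4 libraries of a group came from separate cultures, so the p-values measure the spread between these libraries, which may be technical. The normoxia and low oxygen libraries were deposited as separate tables, so the oxygen level and the table cannot be told apart.

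Cells sense oxygen through hydroxylases that use molecular oxygen to mark the alpha subunits of the hypoxia-inducible factors (HIF) for destruction by the VHL ubiquitin ligase. When oxygen is short the alpha subunits escape, pair with ARNT and bind short hypoxia response elements near genes for glucose uptake, glycolysis, mitophagy, matrix hydroxylation and blood vessel growth. One of these target genes is MIR210HG, the host transcript of the microRNA miR-210, which lowers transcripts for iron-sulfur cluster assembly and the respiratory chain. Severe low oxygen also engages the unfolded protein response of the endoplasmic reticulum (ER) and the integrated stress response, a kinase pathway that slows translation and induces the factors ATF4 and DDIT3.

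MIR210HG (chr11:565660-568457, minus strand) had 0 counts in all 8 MIR210HG-KO libraries. The same gene rose from 613 counts over 4 libraries to 2794 in WT and from 355 to 2801 in MIR210-KO. The MIR210 precursor inside it also had 0 counts at both oxygen levels in MIR210HG-KO cells, against 3 and 30 counts in WT and 1 and 33 in MIR210-KO. As they rose in the line knocked out for MIR210 too, these few counts do not measure loss of the microRNA. A count of 0 over 4 libraries allows a level of up to 0.029 CPM (counts scaled to a common library size of 1000000) in normoxia and 0.023 CPM in low oxygen, at 3 counts over the group and with counting error only. The libraries do not measure mature miR-210. Its sequence is shown because it is the product of the locus that was knocked out. Capitals mark the seed, bases 2 to 8, with which a microRNA pairs to its targets, and the 22 bases lie at chr11:568112-568133 on the minus strand of RefSeq's GRCh38.p14.
hsa-miR-210-3p: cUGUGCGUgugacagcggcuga

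Some promoters follow, as the 250 bases before the gene start that RefSeq gives on GRCh38.p14, written 5′ to 3′ on the strand of the gene. Only windows that hold the motif were eligible, so they do not show how common it is. Their genes also needed at least 5 CPM. The first 4 are the eligible HIF targets with the largest rises. STC1 was passed over for want of a promoter sequence and TMEM45A for want of a match. The last pair are the eligible unfolded protein response genes whose response fell furthest below that of WT. In the first 4, capitals mark each ACGTG or GCGTG on either strand (CACGT or CACGC on the printed strand), the core letters of a hypoxia response element. ACGTG matches can overlap each other as CACGTG. LOX (chr5:122078260-122078509, minus strand) has 4 such matches between 185 and 42 bases before the start, BHLHE40 (chr3:4979187-4979436, plus strand) has 4, BHLHE41 (chr12:26125038-26125287, minus strand) has 3 and PFKFB4 (chr3:48556804-48557053, minus strand) has 1. In the last pair capitals mark an ER stress element, CCAAT and CCACG with any 9 bases between, searched on both strands. HSPA5 (chr9:125241344-125241593, minus strand) holds it 66 bases before the start and XBP1 (chr22:28800570-28800819, minus strand) 52 bases before.
LOX: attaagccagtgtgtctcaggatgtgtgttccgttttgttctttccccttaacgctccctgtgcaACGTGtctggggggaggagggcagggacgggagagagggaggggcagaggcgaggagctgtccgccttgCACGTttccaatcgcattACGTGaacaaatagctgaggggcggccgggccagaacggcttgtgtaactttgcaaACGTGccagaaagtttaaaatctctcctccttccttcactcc
BHLHE40: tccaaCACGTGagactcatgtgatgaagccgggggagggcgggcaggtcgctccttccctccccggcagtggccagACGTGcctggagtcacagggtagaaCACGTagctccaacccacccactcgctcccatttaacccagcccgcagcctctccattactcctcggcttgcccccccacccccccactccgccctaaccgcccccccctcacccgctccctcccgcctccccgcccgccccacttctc
BHLHE41: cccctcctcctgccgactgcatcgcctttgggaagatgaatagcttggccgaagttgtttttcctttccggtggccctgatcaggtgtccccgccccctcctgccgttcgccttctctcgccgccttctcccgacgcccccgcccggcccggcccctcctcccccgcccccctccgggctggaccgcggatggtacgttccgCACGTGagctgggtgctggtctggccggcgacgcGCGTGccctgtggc
PFKFB4: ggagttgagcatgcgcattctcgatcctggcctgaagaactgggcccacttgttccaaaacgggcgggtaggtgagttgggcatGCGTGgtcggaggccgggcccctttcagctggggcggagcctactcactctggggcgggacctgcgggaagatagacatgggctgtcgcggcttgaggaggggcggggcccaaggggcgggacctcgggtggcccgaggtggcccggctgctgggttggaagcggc
HSPA5: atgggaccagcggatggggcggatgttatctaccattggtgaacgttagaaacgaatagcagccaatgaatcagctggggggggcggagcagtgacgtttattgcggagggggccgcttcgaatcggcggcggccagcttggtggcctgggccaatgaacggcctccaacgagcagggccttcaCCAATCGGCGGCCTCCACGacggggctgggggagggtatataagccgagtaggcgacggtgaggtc
XBP1: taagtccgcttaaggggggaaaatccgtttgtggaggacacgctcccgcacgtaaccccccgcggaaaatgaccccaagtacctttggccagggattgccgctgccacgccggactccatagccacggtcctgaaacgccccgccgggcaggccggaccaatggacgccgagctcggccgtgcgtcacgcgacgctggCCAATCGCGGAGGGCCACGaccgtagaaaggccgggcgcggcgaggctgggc

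A match to such short letters is a description and not a binding site. Over all 35116 RefSeq promoters, 43.2% held ACGTG or GCGTG in the same window, 18.5% ACGTG and 32.2% GCGTG. Of 54 tested genes on a list of HIF targets, 44 had a promoter in the table and 34 of those, 77.3%, held either motif. ACGTG was in 52.3% of them and GCGTG in 56.8%. BNIP3 had 6 matches and LDHA 5, while the windows of PDK1, SLC2A1, TMEM45A and EGLN3 had none. The ER stress element was in 26 of all promoters (0.074%) and in 7 of 35 matched genes on an unfolded protein response list. Those 7 were CALR, CANX, CRELD2, ERO1B, HSP90B1, HSPA5 and XBP1. Of the same 35 genes 31, 88.6%, held ACGTG or GCGTG (40% ACGTG and 65.7% GCGTG). A high share of these oxygen motifs was therefore not particular to the HIF targets.

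The 8 libraries held 25556776 to 28040589 counts in normoxia and 25992740 to 34586619 in low oxygen. The first principal component, 54.7% of the variance, separated the oxygen levels, and the second, 10.2%, separated normoxia library 3 from the rest. Its counts differed from those of the other 3 normoxia libraries by a chi-square of 18.0 to 31.3 per degree of freedom, against 2.39 to 4.94 among those 3. Libraries of low oxygen had a lower share of counts from the mitochondrial genome than normoxia libraries (1.93% to 2.25% against 3.18% to 3.33%), a lower share from cytosolic ribosomal protein genes (6.05% to 6.59% against 7.40% to 7.74%) and a higher share from long non-coding RNA genes (2.16% to 2.22% against 1.44% to 1.53%). For each the groups did not overlap (two-sided exact permutation test, p = 0.0286, the smallest that 4 against 4 allows). A list of 18 HEK293 lineage genes summed to 396.5 to 412 CPM in normoxia and 560.1 to 596.3 in low oxygen. The 12 blood and endothelial markers summed to 4.66 to 5.83 and 6.90 to 7.32 CPM, with PTPRC and CD3E at 0 counts in normoxia and HBB at 0 in low oxygen. The 10 fibroblast markers summed to 34.4 to 42.9 and 30.4 to 34.9 CPM, with FAP at 0 in low oxygen. The part of these markers in the results was not tested. In such bulk libraries fewer cells of a type and less RNA per cell cannot be told apart.

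Of 58735 genes in each table, 19952 had enough counts to be tested with edgeR's quasi-likelihood test at a Benjamini-Hochberg adjusted p of 0.05, the threshold for every rise or fall below. In MIR210HG-KO cells 5135 genes rose in low oxygen (25.7%) and 5653 fell (28.3%). By at least 2-fold, 1306 rose and 555 fell. Genes named below for the largest changes were picked from called genes whose oxygen groups did not overlap. Where such a gene's groups are said to be apart, that is a description only. Median log2 fold change (low oxygen over normoxia) over all tested genes was 0.027, the level against which each list is read. The counts of each list are likewise read against the 25.7% and 28.3% of all tested genes. Without normoxia library 3 the counts were 5292 and 5618. The split between higher and lower depended on the scaling: rises were 47.6% of calls as fitted, 63.0% with upper quartile factors and 59.7% when counts were scaled by a smooth trend on gene length in each library, which moved the median of all genes to 0.162 and 0.145. Values given below after length scaling are read against that 0.145 and against 6991 rises and 4722 falls of 19952 genes. Those with upper quartile factors are read against 0.162, with 7074 rises and 4164 falls. WT cells had 5899 genes higher (29.6%) and 6123 lower (30.7%), and MIR210-KO cells 5836 higher (29.3%) and 5878 lower (29.5%). Of the 10788 genes called in MIR210HG-KO cells, 7954 were called in the same direction in WT cells (73.7% of the MIR210HG-KO calls and 66.2% of the WT calls) and 359 in the opposite direction. With MIR210-KO cells 8810 were shared (81.7% and 75.2%) and 66 were opposite.

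Gene length moved with the response. Among protein-coding genes with at least 5 CPM, 52 of 61 genes of up to 1000 bases fell and 4 rose, with a median log2 fold change of -0.72. In the band above 8000 bases 739 of 2710 fell and 1065 rose, with a median of 0.076. The plot of the median by length band shows a like slope in WT and MIR210-KO cells. Many lists are therefore given below with the value after that length scaling, an alternative added after the data were seen. The part of gene length in the lists' changes was not tested beyond those values.

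**Figure D1:**
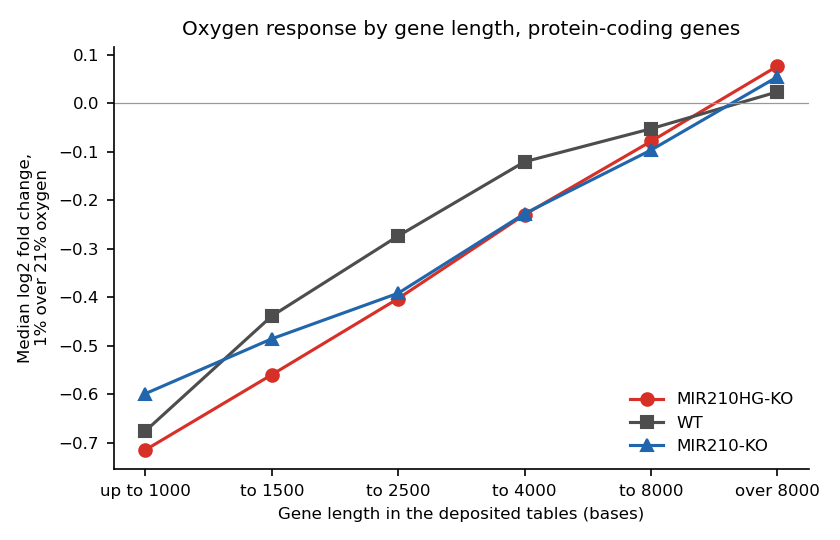
Median log2 fold change of protein-coding genes with at least 5 CPM (vertical axis) in 6 bands of gene length (horizontal axis, bases), for MIR210HG-KO, WT and MIR210-KO cells; each point is the median over the genes of a band. In MIR210HG-KO cells the median goes from -0.72 in the shortest band to 0.076 in the longest.

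Transcripts of the HIF alpha subunits did not pass the test, while several oxygen sensors and cofactors did. HIF1A, the main alpha subunit, stood at 139, 145, 162 and 146 CPM in the 4 normoxia libraries and at 157, 150.4, 143 and 141 CPM in low oxygen. The groups overlapped, and the change did not pass the test (edgeR adjusted p = 0.999). EPAS1, the second alpha subunit, had a log2 fold change of 0.004, and HIF1AN, the asparaginyl hydroxylase, of -0.19, neither past the threshold. EPAS1 passed with upper quartile factors (0.14, beside a median of 0.162 over all tested genes). HIF1AN passed after length scaling (-0.30) and without normoxia library 3 (-0.22). EGLN1, the main prolyl hydroxylase, went from 179, 165, 164 and 181 CPM to 379, 389, 363 and 361 CPM. All 4 low oxygen values lay above all normoxia values (log2 fold change 1.12 ± 0.047 SE, edgeR adjusted p = 1.30e-18). EGLN3 rose by 0.87 and CITED2, which competes with HIF for a coactivator, by 0.67 on the log2 scale. EGLN2, the third prolyl hydroxylase, fell by 0.43. CITED4 fell by 0.74, a call lost after length scaling. Of the 12 sensors and factors 5 rose and 2 fell, with a median of 0.054.

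Most HIF target genes rose in cells without MIR210HG. Of 57 on the list 54 were tested, 45 rose and 2 fell, with a median log2 fold change of 1.26 against 0.027 for all tested genes. The 54 include MIR210HG itself, which had no counts in MIR210HG-KO libraries. It could not be called there, unlike in WT and MIR210-KO cells. The list is a textbook one and was assembled with earlier results of these data known. Its counts were 44 and 2 without normoxia library 3, and 45 and 1 after length scaling. In WT cells the same 54 genes gave 45 rises, 2 falls and a median of 1.37, and in MIR210-KO cells 45, 2 and 1.04. The plot shows the strongest members by library, picked by the size of their rise, so the gap between their points is a description only.

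**Figure D2:**
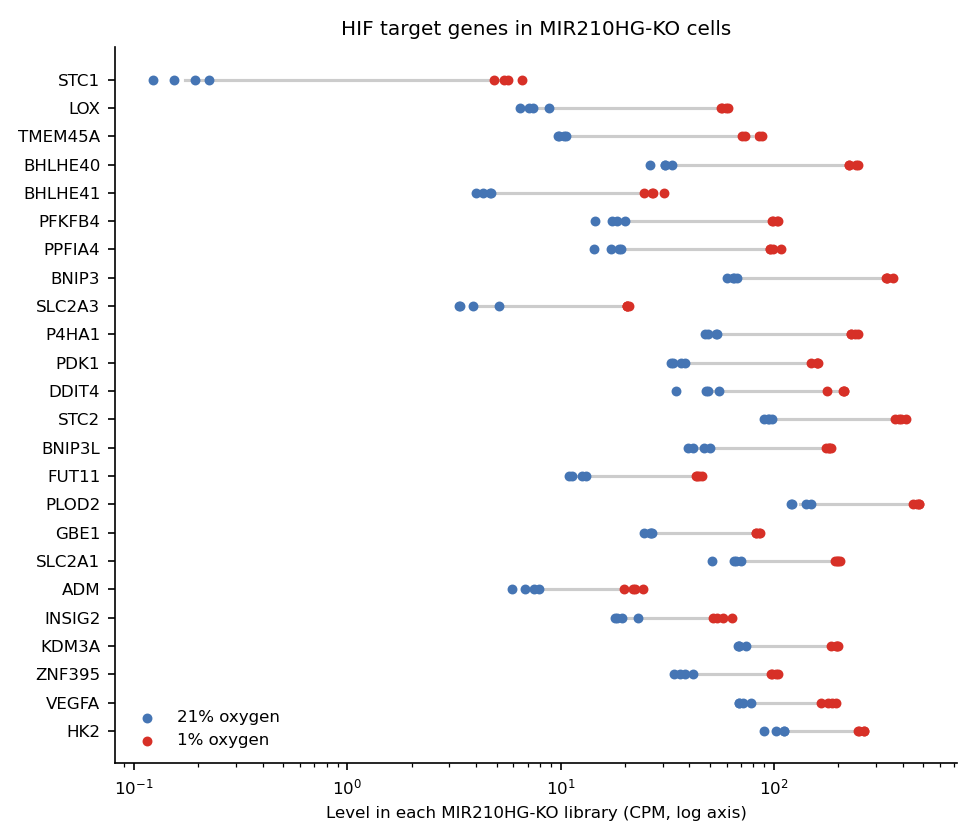
CPM on a log axis in each MIR210HG-KO library at 21% (blue) and 1% oxygen (red) for the 24 HIF target genes with the largest rises among those with at least 5 CPM at their higher level; each point is a library and the grey line joins the group means. The genes were picked as called with the largest rises, so the gap between their groups is a description only. STC1 moves farthest and HK2 least.

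Genes of glucose handling and metabolism came first by role: 10 of 12 tested rose, 1 fell and the median was 1.39. PFKFB4, whose enzyme sets the level of an activator of phosphofructokinase, had 18.3, 17.4, 14.4 and 20.03 CPM in normoxia and 98.1, 104, 104 and 99.1 CPM in low oxygen. Its lowest low oxygen library was several times its highest normoxia library, and the log2 fold change was 2.53 ± 0.080 SE (edgeR adjusted p = 6.51e-22). SLC2A3, a high-affinity glucose transporter, rose by 2.39 (3.93 to 20.6 CPM), and SLC2A1, the widely expressed transporter, by 1.66 (63.1 to 199 CPM). PDK1, which blocks entry of pyruvate into the mitochondrial cycle, rose by 2.15. GBE1, the glycogen branching enzyme, rose by 1.68 (26.0 to 83.7 CPM). CA12, a membrane carbonic anhydrase, fell by 0.59. CA9, the related enzyme often used as a marker of low oxygen, was too low to be tested: 0 counts over the 4 normoxia libraries and 9 over the 4 of low oxygen, at least 2.38-fold higher with 3 counts over the normoxia group taken as the floor. In WT it went from 0 to 41 counts.

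Secreted factors were mixed: 6 of 11 tested rose and 1 fell, with a median of 0.92. STC1, a secreted glycoprotein, had the largest rise of all named genes, from 0.154, 0.192, 0.224 and 0.123 CPM to 5.64, 4.86, 5.40 and 6.55 CPM. The groups were far apart, and the log2 fold change was 4.97 ± 0.22 SE (edgeR adjusted p = 6.91e-18). STC2, its paralog, went from 94.7, 93.8, 89.4 and 97.8 CPM to 368, 395, 384 and 417 CPM. Here too the groups were far apart, at 2.06 ± 0.049 SE. VEGFA, the growth factor for blood vessels, stood at 77.8, 68.8, 71.2 and 68.2 CPM and then at 166, 194, 186 and 178 CPM, a rise of 1.34 on the log2 scale. ADM, the vasodilator peptide adrenomedullin, rose by 1.65. EFNA1, an ephrin ligand, fell by 0.44, a call lost after length scaling (-0.19). IGFBP3, ANGPTL4, EFNA3 and EPO did not pass the test, but EFNA3 passed after length scaling (0.55).

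Among intracellular targets 29 of 31 rose and none fell, with a median of 1.15. LOX (chr5:122063195-122078360, minus strand), which cross-links collagen and whose promoter with 4 motif matches is printed above, had 7.10, 6.41, 8.84 and 7.37 CPM in normoxia and 60.6, 59.3, 56.5 and 56.8 CPM in low oxygen. Every low oxygen library was several times every normoxia library (log2 fold change 2.97 ± 0.078 SE, edgeR adjusted p = 5.82e-24). BHLHE40 (chr3:4979116-4985323), a transcriptional repressor also tied to the circadian clock, went from 30.8, 30.7, 26.2 and 33.2 CPM to 226, 225, 243 and 246 CPM. Its change was 2.96 ± 0.071 SE (edgeR adjusted p = 8.94e-25), and its paralog BHLHE41 rose by 2.62. BNIP3, a mitophagy receptor of the outer mitochondrial membrane, had 64.3, 60.4, 67.0 and 65.0 CPM and then 334, 359, 338 and 337 CPM. The rise was 2.42, and BNIP3L, the related receptor, rose by 2.02. DDIT4, which restrains mTORC1, rose by 2.13, TMEM45A by 2.96 and ANKRD37 by 1.70.

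Several HIF targets responded by a different amount than in WT, tested as the genotype by oxygen interaction. Over all genes this interaction was higher in MIR210HG-KO cells for 2045 genes (10.2%) and lower for 2441 (12.2%). The counts of this interaction in each list below are read against these shares. The low oxygen libraries 1 and 3 of WT stood apart from the others of their group, with 1.62% and 1.55% of counts from long non-coding RNA genes against 2.25% and 2.49%. Without them the counts were 1876 and 1988, and for the main interactions below a second value leaves them out. Of the 54 HIF targets 14 had a higher and 10 a lower interaction (13 and 12 without those libraries). STC2 rose by 2.06 in MIR210HG-KO cells and by 1.14 in WT, an interaction of 0.92 ± 0.066 SE (edgeR adjusted p = 9.73e-12; 0.92 without the 2 WT libraries). PPFIA4, a liprin, rose by 2.51 (interaction 1.26; 1.13 without). PFKFB4 had an interaction of 0.81 (0.79 without) and LOX of 0.60 (0.52 without). In the other direction, NDRG1, a growth-arrest gene and a standard marker of low oxygen, went from 97.9, 89.8, 84.0 and 89.6 CPM to 167, 177, 183 and 182 CPM. These groups did not overlap, but the rise of 0.97 was smaller than the 2.33 in WT (interaction -1.36 ± 0.084 SE, edgeR adjusted p = 5.36e-13; -1.36 without). ANKRD37 had an interaction of -1.53 (-1.52 without), HK2 of -0.65 (-0.76 without) and VEGFA of -0.38 (-0.42 without).

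Set against MIR210-KO cells, which keep MIR210HG transcription, the interaction was called for far fewer genes: 405 higher (2.03%) and 302 lower (1.51%). Without normoxia library 3 of MIR210HG-KO these counts were 654 and 452. Among HIF targets 16 were higher and 2 lower. LOX had the largest of these differences, rising by 2.97 in MIR210HG-KO cells and 1.58 in MIR210-KO cells (interaction 1.39 ± 0.10 SE, edgeR adjusted p = 2.16e-10). STC2 had 1.05, SLC2A1 0.60 and HK2 0.56. NDRG1 was lower, at -0.73. The 2 interactions share the MIR210HG-KO libraries and are given side by side only.

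Glycolysis as a whole shifted in part. Of 31 genes for glucose entry, glycolytic steps, lactate and their regulators 19 rose and 6 fell, with a median of 0.40. LDHA, which makes lactate, had 1160, 1102, 1188 and 1185 CPM in normoxia and 2157, 2186, 2132 and 2208 CPM in low oxygen, a rise of 0.91 with no overlap. PGK1, the first ATP-forming step, rose by 1.42 (630.1 to 1680 CPM), ENO2 by 1.57 and ALDOC by 2.13. PFKFB3 rose by 1.21 and HK2 by 1.31. LDHB, the lactate dehydrogenase subunit that favours the reverse reaction, fell by 1.36 (72.4 to 28.2 CPM), and PFKM, the muscle phosphofructokinase, by 0.47. The interaction with WT was higher for 13 of these genes and lower for 3 (14 and 3 without the 2 WT libraries). Among regulators TXNIP, which limits glucose uptake, had 0.71 (0.72 without), and PDK3 had 0.49, which fell to 0.25 and lost its call without those libraries.

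Enzymes that need oxygen themselves rose in part. Among 12 collagen and lysine hydroxylases and lysyl oxidases 7 rose and 3 fell, with a median of 0.44. P4HA1, the catalytic subunit of collagen prolyl hydroxylase, rose by 2.21 (50.9 to 236 CPM) and PLOD2, a lysyl hydroxylase, by 1.82 (133 to 468 CPM). PLOD3, another lysyl hydroxylase, fell by 0.83. Of 20 oxygen-dependent histone and DNA demethylases 11 rose and 3 fell, with a median of 0.20. KDM3A rose by 1.48 (69.5 to 194 CPM) and TET1, which oxidises methylcytosine, by 1.10 (59.2 to 126 CPM). The plot of 18 gene lists places these beside the groups that fell.

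**Figure D3:**
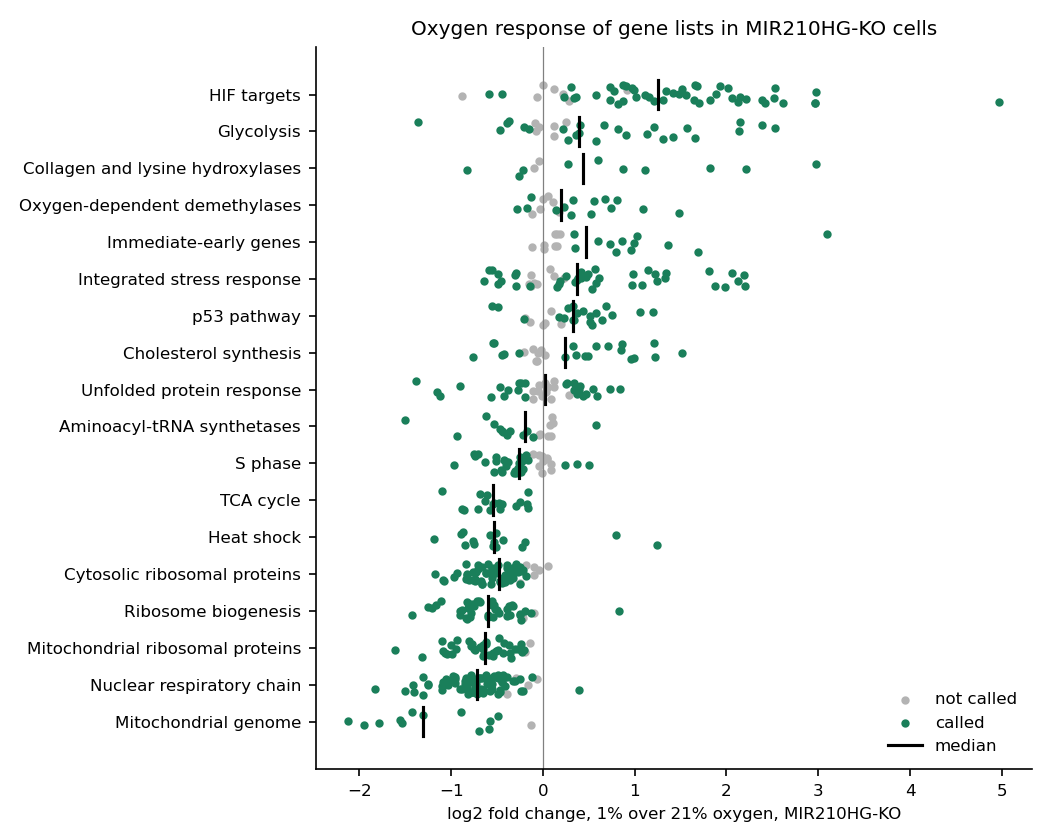
Log2 fold change of low oxygen over normoxia in MIR210HG-KO cells (horizontal axis) for the members of 18 gene lists; each point is a tested gene, green where called and grey where not, and the black bar is the list's median. The HIF targets have the highest median, 1.26, and the genes of the mitochondrial genome the lowest, -1.31.

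Mitochondrial transcripts fell together. Of 13 protein genes of the mitochondrial genome 12 fell and none rose, with a median of -1.31. MT-ATP6, a subunit of the ATP synthase, had 3625, 3499, 3531 and 3175 CPM in normoxia and 880, 659, 784 and 852 CPM in low oxygen. The groups were far apart (log2 fold change -2.12 ± 0.096 SE, edgeR adjusted p = 7.45e-18). MT-CO3 fell by 1.95 and MT-CYB by 1.78, while MT-CO1 fell by 0.59 and MT-ND6, the one protein gene here on the light strand, had -0.13 and did not pass the test. MT-ND6 passed as a rise after length scaling (0.38). Normoxia library 3 weighed on this list: without it the count stayed at 12 of 13 but the median was -0.82. After length scaling 11 fell and 1 rose, with a median of -0.85. WT cells had 12 of 13 lower with a median of -1.23, and MT-CYB was the one member with an interaction, 0.93 (1.08 without the 2 WT libraries, where 3 members had one).

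The nuclear genes of the respiratory chain showed the same direction. Of 76 tested 71 fell and 1 rose, with a median of -0.72. By complex, 33 of 38 genes of complex I fell, all 23 of complexes II to IV fell and all 15 of the ATP synthase fell. Of the 76, 22 are at most 1500 bases long, and after length scaling 66 fell and 1 rose, with a median of -0.41. ATP5ME, a small membrane subunit of the ATP synthase, went from 30.6, 32.4, 27.0 and 25.3 CPM to 8.01, 8.74, 8.14 and 7.44 CPM. The groups were far apart, with a fall of 1.83 on the log2 scale. NDUFS6, a complex I subunit, fell by 1.42 and CYC1, cytochrome c1, by 1.26. NDUFA13 rose by 0.39 (6.24 to 8.19 CPM). The interaction with WT was called for few of the 76, 4 higher and 5 lower, but for 14 and 2 without WT low oxygen libraries 1 and 3 (10 and 5 after length scaling). COX4I2, the subunit variant tied to low oxygen, had 1 count in normoxia and 0 in low oxygen.

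In the tricarboxylic acid cycle and its entry all 18 genes fell, with a median of -0.54 (16 of 18 and -0.42 after length scaling, also 16 of 18 without normoxia library 3). PC, pyruvate carboxylase, fell by 1.11 (21.2 to 30.4 CPM in normoxia, 11.1 to 13.6 CPM in low oxygen). MDH2, malate dehydrogenase, fell by 0.88 and CS, citrate synthase, by 0.58. In WT 14 of these 18 fell, with a median of -0.40. Iron handling went mostly down as well: 12 of 21 fell and 3 rose, with a median of -0.20 (10 and 7, and -0.080, after length scaling). GLRX5, which passes on iron-sulfur clusters, fell by 0.79 and NFS1, which supplies their sulfur, by 0.67. TFRC, the transferrin receptor, rose by 0.66 (286 to 452 CPM) and SLC40A1, the iron exporter, by 0.59.

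Reported targets of miR-210, which these libraries do not measure, were split. Of 20 tested 6 rose and 8 fell (all tested genes: 25.7% and 28.3%), with a median of -0.055 (0.058 after length scaling). ISCU, the iron-sulfur cluster scaffold, had 61.1, 58.8, 60.7 and 57.2 CPM in normoxia and 46.7, 55.6, 48.8 and 45.8 CPM in low oxygen. Its fall of 0.27 compares with -0.14 in WT (interaction -0.14 ± 0.085 SE, adjusted p = 0.26 by edgeR). FGFRL1, a receptor-like protein, fell by 0.94 (-0.73 in WT), GPD1L by 0.44 (-0.44) and SDHD, a complex II subunit, by 0.30 (-0.42). The SDHD call was lost after length scaling (-0.087). NDUFA4 fell by 0.72 (-0.84). Against WT, 3 of the 20 had a higher and 3 a lower interaction (4 and 2 without the 2 WT libraries). Over all tested genes these shares were 10.2% and 12.2%. NPTX1 had 0.86 (0.83 without), BNIP3 0.39 (0.47) and COX10 -0.42 (-0.39). ACVR1B (0.22, 0.13 without), BDNF (-1.73, -1.76) and RAD52 (-0.31, -0.30) lost their calls without those libraries. Of 22 tested neighbours of the locus on chromosome 11, 3 rose and 11 fell, with a median of -0.36 (-0.11 after length scaling, -0.45 in WT). HRAS fell by 1.04 and RNH1 by 1.02, close to their WT values of -0.997 and -0.92. Among these neighbours TMEM80 had the only interaction with WT (0.59, 0.69 without the 2 WT libraries; 4 genes were then higher).

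Genes that build ribosomes mostly fell. Of 44 ribosome biogenesis factors 41 fell and 1 rose, with a median of -0.60 (37 fell after length scaling, median -0.51). BOP1, a nucleolar assembly factor for the large subunit, had 256, 249.9, 173 and 217 CPM in normoxia and 76.5, 82.2, 90.6 and 83.3 CPM in low oxygen. The groups did not overlap, and the log2 fold change was -1.43 ± 0.091 SE. RRS1 fell by 1.26 and FBL, the methyltransferase of nucleolar RNA, by 0.69. WT had 31 of the 44 lower and a median of -0.38, and the interaction was lower for 19 and higher for 3 (15 and 3 without the 2 WT libraries): GNL3, a nucleolar GTPase, had -0.76 (-0.65 without) and RRP12 -0.73 (-0.63).

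Cytosolic ribosomal protein genes fell in 60 of 66 cases, with none higher and a median of -0.48. After length scaling 49 fell and 1 rose, with a median of -0.31. RPS21 fell by 1.18 (264 to 342 CPM in normoxia, 118 to 152 in low oxygen) and RPS29 by 1.09. Of these, 19 had a lower interaction with WT, and 3 without WT libraries 1 and 3, so that count rests on those libraries. Many of these genes have pseudogene copies that reads can be split with. Mitochondrial ribosomal protein genes fell in 38 of 40 cases, with a median of -0.63 (31 of 40 and -0.40 after length scaling). MRPL12 fell by 1.61, from 35.1, 36.0, 30.2 and 33.0 CPM to 8.82, 12.3, 9.88 and 13.2 CPM, again with no overlap. The small nucleolar RNA host genes, transcripts with growth-linked promoters, fell in 14 of 17 cases with a median of -0.49, while WT had a median of 0.045. After length scaling 9 of these host genes fell and 3 rose, with a median of -0.36, and 12 fell without normoxia library 3. Their interaction was lower for 10 and higher for 1 (9 and 1 without the 2 WT libraries): SNHG1 -1.24 (-1.12 without), SNHG17 -1.11 (-0.98) and GAS5 -1.02 (-0.80).

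Protein quality control outside the ER fell too. Of 31 proteasome subunits 27 fell and none rose, with a median of -0.52 (26 and -0.36 after length scaling). PSMB3 fell by 1.10 and PSMB6 by 1.10. Of 16 heat shock genes 14 fell, with a median of -0.54. HSPA8, the constitutive cytosolic chaperone, fell by 0.87 (1843 to 1009 CPM) and HSPE1, the mitochondrial co-chaperonin, by 1.18. CRYAB and HSPB8, small heat shock proteins, rose by 1.24 and 0.79 from low levels (0.126 to 0.308 and 2.17 to 3.78 CPM), with negative interactions with WT of -2.59 (-2.31 without the 2 WT libraries) and -1.88 (-1.80). CRYAB lost its call when normoxia library 2, 3 or 4 or low oxygen library 2 or 4 was left out (log2 fold change 1.05 to 1.23).

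Replication genes mostly fell and mitotic genes were split. Of 42 replication genes 29 fell and 3 rose, with a median of -0.26 (21 fell and 9 rose after length scaling, median -0.13). UHRF1, which maintains DNA methylation at the fork, fell by 0.96 (333 to 171 CPM), MCM5, a subunit of the replicative helicase, by 0.75 and CCNE1, cyclin E1, by 0.74. Of 47 mitotic genes 17 rose and 15 fell (all tested genes: 25.7% and 28.3%), with a median of 0.017 (24 and 10, and 0.14, after length scaling). The median of all tested genes after that scaling was 0.145. CDC20, the activator of the anaphase-promoting complex, fell by 1.03 and HMMR, a spindle protein, rose by 0.90. Replication-dependent histones, whose messages lack a poly(A) tail in cycling cells, rose in 7 of 17 tested and fell in 1, with a median of 0.54 (14 and none, and 0.80, after length scaling). HIST1H2BN rose by 1.11 (1.94 to 4.17 CPM). Their interaction with WT was lower for 6 of 17, with HIST1H1C, a linker histone, at -1.38 (-1.33 without the 2 WT libraries).

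The p53 pathway list rose more often than it fell: 17 of 26 higher and 3 lower, with a median of 0.33. HEK293T cells carry large T antigen, which binds p53. CDKN1A, the cell cycle inhibitor p21, had 55.9, 50.9, 46.8 and 54.1 CPM in normoxia and 68.0, 80.6, 75.4 and 72.6 CPM in low oxygen. It rose by 0.51 (0.67 in WT), while SPATA18 rose by 1.199 and TP53INP1 by 1.06. GADD45A rose by 0.68, less than in WT (2.08; interaction -1.39, -1.20 without the 2 WT libraries), and GADD45B had 0.022, or 0.32 with a call after length scaling, against 1.99 in WT. In the BCL2 family 5 of 15 rose and 5 fell (all tested genes: 25.7% and 28.3%), with a median of 0.039. The pore-formers BAK1 and BAX fell by 0.78 and 0.56 and the activator BID by 0.86. The BH3-only genes BMF, PMAIP1 and BBC3 rose by 0.75, 0.33 and 0.37.

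Immediate-early genes, which respond to growth signals and stress within minutes, rose less widely than in WT. Of 20 tested 12 rose and none fell, with a median of 0.47, against 19 rises and a median of 1.28 in WT. After length scaling 16 rose in MIR210HG-KO cells, with a median of 0.605, and 10 rose without normoxia library 3. FOS had 2.39, 1.15, 1.31 and 2.13 CPM in normoxia and 13.98, 14.1, 13.9 and 17.5 CPM in low oxygen. The groups were far apart at 3.09 ± 0.18 SE (edgeR adjusted p = 6.95e-15), with 4.02 in WT. The interaction was lower for 14 of the 20 and higher for none (13 and none without the 2 WT libraries). ARC, a cytoskeletal immediate-early gene, had 0.16 and did not pass the test in MIR210HG-KO cells, against 2.20 in WT (interaction -2.05, -1.65 without). DUSP1, a MAP kinase phosphatase, had 0.13 against 1.63 (-1.50, -1.40 without), and JUNB 0.008 against 1.28. DUSP1 and JUNB passed as rises after length scaling (0.45 and 0.35). MIR210-KO cells lay closer, with 11 rises, 3 falls and a median of 0.36.

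The unfolded protein response, which rose in WT cells, was split in MIR210HG-KO cells. There 13 of 38 genes rose and 13 fell (all tested genes: 25.7% and 28.3%), with a median of 0.026 (17 and 8, and 0.096, after length scaling). In WT 26 rose and 5 fell, with a median of 0.41, and in MIR210-KO 9 rose and 18 fell, with a median of -0.14. The interaction with WT was lower for 23 of the 38 and higher for none, beside 12.2% and 10.2% of all tested genes. The count was the same without WT libraries 1 and 3 and was 24 after length scaling. The plot of knockout against WT responses shows most of these genes above the diagonal.

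**Figure D4:**
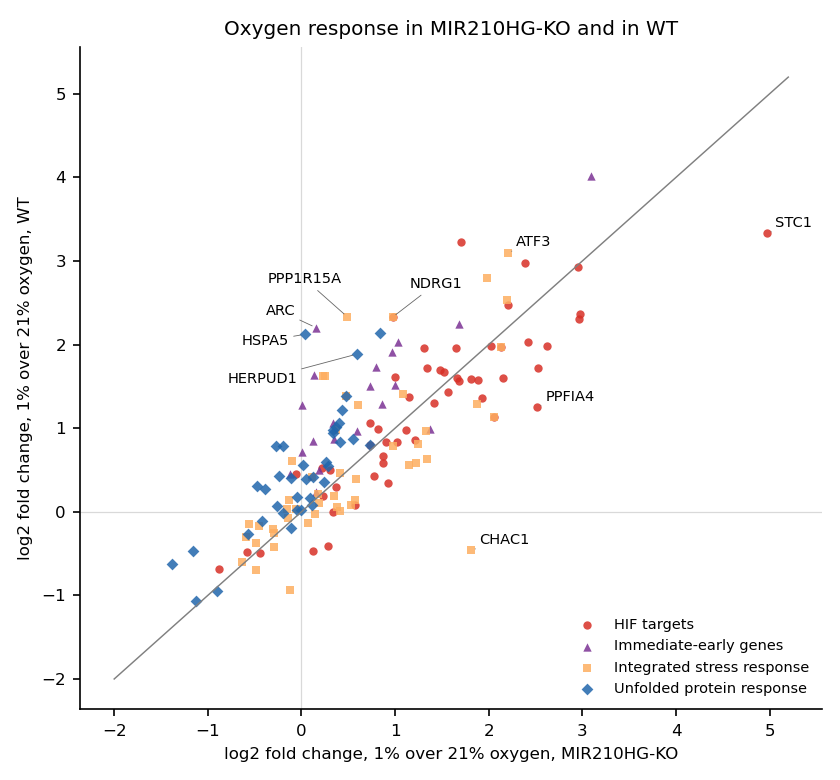
Log2 fold change of low oxygen over normoxia in MIR210HG-KO cells (horizontal axis) and WT cells (vertical axis) for tested genes of 4 lists. MIR210HG was left out, each point is a gene and the line marks equal responses. Unfolded protein response and immediate-early genes lie mostly above the line, and HSPA5 is at 0.034 in MIR210HG-KO and 2.12 in WT.

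Among ER chaperones 10 of 12 had a lower interaction with WT, as did 4 of 8 genes of disulfide formation, 5 of 11 of degradation and 4 of 7 sensors and factors. HSPA5, the HSP70 chaperone of the ER lumen whose promoter with the ER stress element is printed above, had 529.9, 513, 544 and 513 CPM in the 4 normoxia libraries of MIR210HG-KO cells and 553, 533, 509 and 555 CPM in low oxygen. The groups overlapped, and the log2 fold change of 0.034 ± 0.056 SE did not pass the test (edgeR adjusted p = 0.636). With length scaling or upper quartile factors the value was 0.17 in each case, beside medians of 0.145 and 0.162 over all tested genes. Both passed (edgeR adjusted p = 0.0021 with length scaling). In WT cells the same gene stood at 496, 545, 480.3 and 523 CPM in normoxia and at 2317, 1978, 2504 and 2101 CPM in low oxygen. There the lowest low oxygen library was more than 3 times the highest normoxia library. The interaction was -2.09 ± 0.080 SE (edgeR adjusted p = 2.26e-18; -1.96 without the 2 WT libraries). DNAJB9, a co-chaperone of HSPA5, went from 9.95, 9.37, 13.6 and 9.75 CPM to 18.9, 20.2, 18.5 and 19.04 CPM in MIR210HG-KO cells. It rose by 0.84 with no overlap, but by 2.14 in WT (interaction -1.30, -1.26 without). MANF, a secreted ER stress factor, fell by 0.27 where WT rose by 0.79, but had -0.003 with no call after length scaling. HYOU1 fell by 0.47 and SDF2L1 by 1.39.

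Degradation and sensing followed the same order. HERPUD1, which recruits the ER ubiquitin ligase, had 45.3, 46.0, 51.5 and 48.1 CPM in normoxia and 74.4, 72.0, 65.5 and 75.8 CPM in low oxygen. It rose by 0.59, against 1.89 in WT (interaction -1.30 ± 0.091 SE; -1.20 without the 2 WT libraries). SELENOS fell by 0.20 against a rise of 0.79 in WT, and had -0.054 with no call after length scaling. XBP1, the factor spliced on ER stress, rose by 0.44 against 1.22 (-0.79, -0.68 without), and EIF2AK3, the sensor kinase PERK, by 0.47 against 1.38 (-0.91, -1.01 without). The counts do not separate spliced from unspliced XBP1. ERO1A, the disulfide-forming oxidase and a HIF target, rose by 0.73, close to the 0.80 of WT (interaction -0.067 ± 0.084 SE, adjusted p = 0.622 by edgeR).

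Against MIR210-KO cells the unfolded protein response differed the other way: 11 of 38 had a higher interaction and none a lower one. HSPA5 had -0.69 in MIR210-KO cells, an interaction of 0.73 (edgeR adjusted p = 4.22e-07), and HERPUD1 had 0.73 and XBP1 0.88. The MIR210HG-KO response lay between those of MIR210-KO and WT for these 3 genes, as the plot of 6 genes over all 24 libraries shows.

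**Figure D5:**
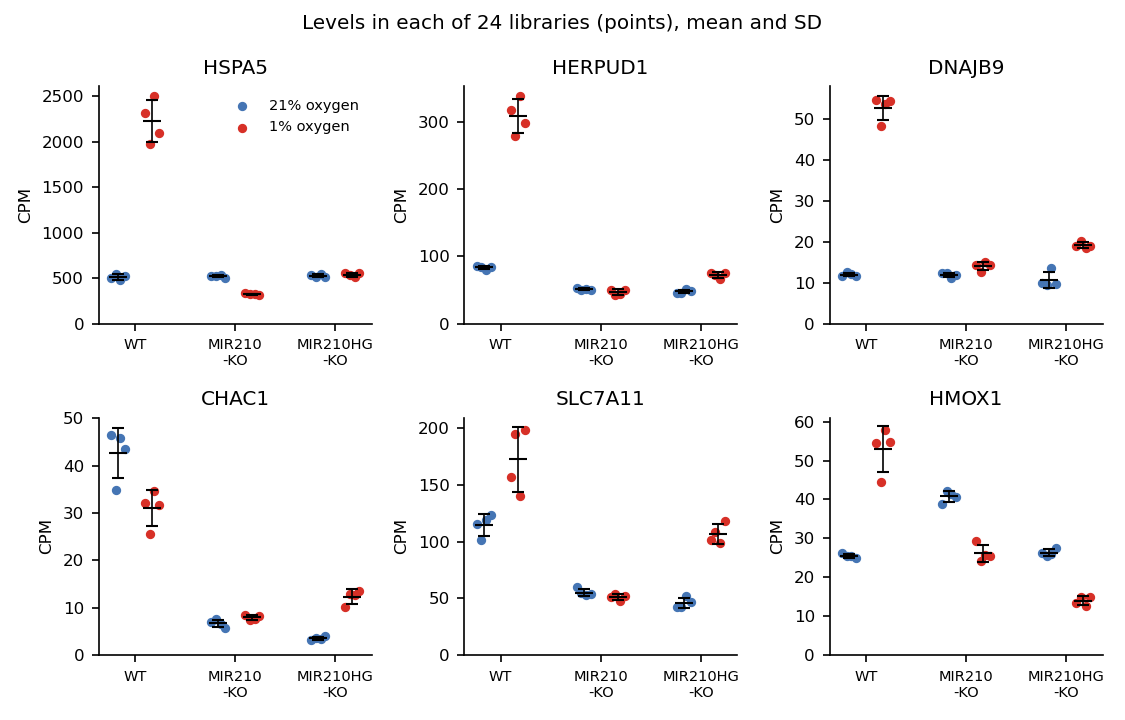
CPM of HSPA5, HERPUD1, DNAJB9, CHAC1, SLC7A11 and HMOX1 in the 24 libraries by genotype (horizontal axis), at 21% (blue) and 1% oxygen (red); points are libraries, bars the mean and SD of 4. HSPA5 in MIR210HG-KO cells stays between 509 and 555 CPM at both oxygen levels.

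Genes of the integrated stress response more often rose than fell. Of 48 genes 30 rose and 10 fell, with a median of 0.37. Interaction with WT was mixed (11 higher, 15 lower), and with MIR210-KO it was higher for 28 and lower for 1, in part for genes that fell or did not pass in MIR210HG-KO cells. By role, the interaction with MIR210-KO was higher for 7 of 7 transcription factors, 8 of 10 transporters, 7 of 11 synthesis genes, 6 of 14 effectors and 0 of 6 kinases and phosphatases. ATF4 itself had -0.063 and did not pass the test, but passed as a rise of 0.19 after length scaling (edgeR adjusted p = 2.42e-04). The median of all tested genes was then 0.145. ATF3, a stress-induced repressor, had 33.8, 32.5, 32.7 and 33.8 CPM in normoxia and 139, 159.8, 142 and 170.3 CPM in low oxygen. The groups were far apart (2.20), between the WT rise of 3.10 and the MIR210-KO rise of 1.16. DDIT3, the factor CHOP, rose by 1.98 against 2.79 in WT.

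Of the 14 effectors 12 rose in low oxygen, with a median of 1.03, and against WT 5 had a higher and 5 a lower interaction. CHAC1, which degrades glutathione, had 3.13, 3.50, 3.43 and 3.93 CPM in normoxia and 10.1, 12.9, 12.8 and 13.6 CPM in low oxygen. All low oxygen values lay above all normoxia values, with a rise of 1.81 ± 0.12 SE (edgeR adjusted p = 1.72e-13). WT started higher, at 46.4, 34.9, 45.8 and 43.4 CPM, and ended at 32.2, 25.6, 34.8 and 31.7 CPM, a log2 fold change of -0.46, so both WT groups stayed above the MIR210HG-KO libraries. The interaction was 2.27 ± 0.16 SE (edgeR adjusted p = 4.53e-12; 2.39 without the 2 WT libraries) and 1.56 against MIR210-KO. PPP1R15A, which reverses the pathway's kinase mark, rose by 0.49 against 2.33 in WT (interaction -1.85, -1.67 without). TRIB3, a feedback inhibitor, rose by 0.25 against 1.62 (-1.37, -1.28 without). NUPR1 rose by 1.88 from a low level (0.698 to 2.57 CPM) where MIR210-KO had -0.14. FGF21 stayed under 1 CPM in the group means (0.0586 to 0.273 CPM).

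Amino acid genes of the same response split by step. Of 11 synthesis genes 6 rose and 4 fell: ASNS, asparagine synthetase, rose by 1.33 (5.18 to 13.0 CPM), CTH, cystathionase, by 1.08, and PHGDH, the entry to serine synthesis, fell by 0.29. SLC7A11, the cystine transporter, had 42.1, 42.4, 51.6 and 46.6 CPM and then 101, 108, 98.8 and 118 CPM. It rose by 1.22 with no overlap, against 0.59 in WT (interaction 0.63, 0.45 without) and -0.11 in MIR210-KO (interaction 1.33, edgeR adjusted p = 4.05e-08). SLC7A5 and SLC1A5, the leucine and glutamine carriers, fell by 0.49 and 0.46. Cytosolic aminoacyl-tRNA synthetases, also on the ATF4 programme, fell in 12 of 20 cases and rose in 1, with a median of -0.19 against 0.20 in WT. After length scaling 10 fell and 4 rose, with a median of -0.079. Their interaction was lower for 15 of 20 and higher for none (12 and 1 without the 2 WT libraries), and against MIR210-KO it was higher for 8. VARS fell (300.3 to 106 CPM), FARSA fell by 0.94 and WARS by 0.45 against a WT value of 0.26. The 1 that rose was DARS, by 0.57.

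Oxidative stress genes mostly fell. Of 20 NRF2 and antioxidant genes 13 fell and 1 rose, with a median of -0.49 (13 and 3, and -0.24, after length scaling). HMOX1, haem oxygenase, had 26.3, 25.6, 26.0 and 27.6 CPM in normoxia and 13.4, 14.9, 12.5 and 15.0 CPM in low oxygen. The groups did not overlap and the log2 fold change was -0.92 ± 0.077 SE (edgeR adjusted p = 1.48e-11). WT went the other way, from 26.2, 25.5, 25.5 and 24.8 CPM to 54.4, 44.4, 58.0 and 54.7 CPM, so the interaction was -1.97 ± 0.11 SE (edgeR adjusted p = 1.36e-14; -1.88 without the 2 WT libraries). MIR210-KO cells had -0.64, a fall as in MIR210HG-KO. SRXN1, sulfiredoxin, fell by 1.03 and TXN, thioredoxin, by 0.58, both near their WT values of -1.03 and -0.54.

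Genes of cholesterol synthesis rose more than in WT. Of 27 cholesterol genes 14 rose and 6 fell, with a median of 0.24 (13 and 8, and 0.16, without normoxia library 3; 14 and 5, and 0.41, after length scaling) against -0.055 in WT, and the interaction was higher for 13 and lower for none (14 and none without the 2 WT libraries). HMGCS1, the synthase at the entry of the pathway, rose by 0.87 (186 to 339 CPM), and INSIG2, which holds the sterol sensor in the ER, by 1.52. In fatty acid synthesis 5 of 16 rose and 6 fell (all tested genes: 25.7% and 28.3%), with a median of -0.004. Of these 16, 8 had a higher interaction with WT. SCD, which desaturates stearate and needs oxygen, had 1205, 1161, 1179 and 1225 CPM and then 2245, 2201, 2217 and 2276 CPM. It rose by 0.91 with no overlap. FASN, fatty acid synthase, had 1241, 1190, 706 and 1091 CPM and then 546, 506, 627 and 562 CPM, a fall of 0.92. Its normoxia library 3 was the lowest of that group and still above every low oxygen library. Among 17 lipid droplet genes 7 rose and 7 fell, with a median of -0.034. HILPDA, a lipase inhibitor and HIF target, rose by 1.76, less than the 3.01 of WT (-1.26, -1.30 without), and G0S2 fell by 1.41 from a low level (1.49 to 0.552 CPM).

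Collagen and matrix genes fell less than in WT. Of 20 collagens and glycoproteins 10 fell and 3 rose, with a median of -0.15 against -0.51 in WT. The interaction was higher for 12 and lower for none (10 and none without the 2 WT libraries). COL2A1 fell by 0.70 against -1.997 in WT (interaction 1.29, 1.28 without) and COL4A2, a basement membrane chain, by 0.37 against -1.31 (0.94, 0.89 without). FN1, fibronectin, rose by 0.84 (98.6 to 176 CPM) and COL9A3 by 0.84.

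Autophagy and nutrient sensing were split. Of 23 autophagy and mitophagy genes 8 rose and 7 fell (all tested genes: 25.7% and 28.3%), with a median of -0.021. Beyond BNIP3 and BNIP3L, OPTN, a receptor for damaged mitochondria, rose by 1.10 (5.68 to 12.2 CPM), while ATG2A, a lipid transfer protein, fell by 1.10 and PINK1, the mitophagy kinase, by 0.58. MAP1LC3B2 rose by 2.13 (0.601 to 2.64 CPM), and its near-identical copy MAP1LC3B had -0.021, so reads between them are uncertain. GABARAPL1 rose by 0.46 against 1.53 in WT (-1.07, -1.02 without the 2 WT libraries). Among 12 genes that restrain mTOR 5 rose and 4 fell, with a median of 0.071 (0.004 without normoxia library 3, 0.15 after length scaling). DDIT4 led with 34.8 to 54.9 CPM in normoxia and 177 to 214 in low oxygen, SESN3 and SESN2 rose by 0.68 and 0.53, and TSC2 fell by 0.50.

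Interferon-stimulated genes were mostly low: of 22 tested 6 rose and 7 fell, with a median of 0.14 (8 and 4, and 0.24, after length scaling). The counts as fitted lie near the shares of all tested genes, 25.7% higher and 28.3% lower. IFITM2 fell by 1.15 (6.55 to 2.94 CPM), ISG15 rose by 0.58 (7.98 to 12.0 CPM), and OAS3 fell by 1.36 at under 1 CPM (0.3001 to 0.108 CPM), a call lost without low oxygen library 2 (-1.11). Of the 16 tested HEK293 lineage genes 10 rose and 2 fell, with a median of 0.54: EYA1, a kidney progenitor gene, rose by 1.18, L1CAM by 1.196, and WT1 fell by 0.93. Of blood and endothelial markers 4 of 12 were tested and 1 rose, with a median of -0.15. Of fibroblast markers 7 of 10 were tested, PDGFRA and ACTA2 rose by 0.94 and 0.97 and COL3A1 and COL1A1 fell by 0.67 and 0.31, with a median of -0.31 that turned to 0.34 when only genes with at least 1 CPM in 4 libraries were tested.

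Other protein-coding genes among the largest rises were AMPD3, ZMAT1, CXCR4, SCN3B and DHRS2. AMPD3 (chr11:10308313-10507579), an AMP deaminase, had 0.579, 0.576, 0.597 and 0.574 CPM in normoxia and 7.35, 7.52, 7.12 and 7.76 CPM in low oxygen. The normoxia libraries were all under 1 CPM and the low oxygen libraries far above (log2 fold change 3.67 ± 0.18 SE, edgeR adjusted p = 7.35e-17). WT rose by 1.85 and MIR210-KO by 1.59, so the interactions were 1.82 (1.68 without the 2 WT libraries) and 2.08. CXCR4, a chemokine receptor, rose by 2.81, SCN3B, a sodium channel subunit, by 2.604 and ZMAT1 by 3.07. DHRS2, a reductase, rose by 2.54 against 4.47 in WT (-1.93, -1.98 without). Outside the mitochondrial genome, respiratory chain and mitochondrial ribosomal lists, the largest falls were C4orf48 (-1.84), POLR2I (-1.71) and the neuropeptide gene GAL (-1.68). PDF (-1.66), ROMO1 (-1.62) and NME1 (-1.59) came next. POLR2I overlaps TBCB on the opposite strand (4.71 times its CPM) and PDF overlaps COG8 on the same strand (2.64 times), so reads may be shared.

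Beyond the lists and among genes with at least 5 CPM, the largest interactions with WT were CPNE7 and CYBA on the higher side and C11orf96 and PCK1 on the lower. CPNE7, a copine, had 1 count over the 4 normoxia libraries of MIR210HG-KO cells and 20 over those of low oxygen, a ratio of 15.9 with a 95% counting interval of 2.54 to 657. In WT it had 946 and 572 counts and in MIR210-KO 1177 and 923, so the gene was near absent from MIR210HG-KO libraries at both oxygen levels. PCK1, the gluconeogenic carboxykinase, rose by 1.10 against 3.36 in WT (-2.26, -2.46 without the 2 WT libraries), and C11orf96 by 0.43 against 3.13 (-2.70, -2.48 without). The C11orf96 rise lost its call without normoxia library 3 (0.32), normoxia library 4 (0.41), low oxygen library 1 (0.41) or low oxygen library 4 (0.40). CYBA, an NADPH oxidase subunit, had 0.37 and DOK3, a signalling adaptor, 0.047; neither passed the test, against -1.72 and -1.53 in WT. CYBA was near absent from MIR210HG-KO libraries (0.504 to 0.650 CPM, against 6.23 to 1.90 CPM in WT), and DOK3 went from 18.1 to 18.6 CPM against 12.7 to 4.38 CPM in WT. Against MIR210-KO the largest higher interactions after CPNE7 and AMPD3 were NUPR1 (2.02), CHAC1 (1.56), ADM2 (1.56) and CYBA (1.48). The largest lower ones were PSMD5 (-1.60), PLA2G16 (-1.20), ZNF467 (-1.14), ZNF331 (-1.06), NMNAT2 (-1.05) and DPYSL4 (-0.95). NMNAT2 lost its call without normoxia library 2 (-0.83). Among the genes that rose in MIR210HG-KO cells 652 had a higher and 636 a lower interaction with WT, among those that fell 671 and 977.

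Long non-coding RNA genes rose far more often than they fell: 981 of 3488 higher (28.1%) and 166 lower (4.76%), with a median of 0.36, against 3780 and 5239 of 14537 protein-coding genes. DARS-AS1, antisense to the aspartyl-tRNA synthetase gene, had 0.463, 0.960, 0.447 and 0.492 CPM in normoxia and 7.68, 9.06, 8.89 and 8.93 CPM in low oxygen. Its normoxia library 2 was the highest of that group and still far below every low oxygen library (3.86 ± 0.17 SE; 2.85 in WT). DARS on the opposite strand had 35.2 times its CPM, and whether the counting used strand is not given in the sources used here. The same holds for AC019069.1 opposite HK2, HSPE1 opposite HSPD1 and LOX opposite SRFBP1, the last with 0.535 times the CPM of LOX. DGCR9 rose by 2.29, AC105383.1 by 2.10, U73166.1 by 2.08 and AC091182.1 by 1.99. The largest falls were SNHG19 and MGC12916, each at -1.05, AC019069.1 (-0.88), AC115618.2 (-0.84) and SNHG8 (-0.82).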

How the data were processed

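RNA-seq of HEK293T cells was analysed from tables of raw counts per gene that the authors deposited, 1 for normoxia and 1 for low oxygen, joined on the gene identifier. Per the submitters' processing notes, STAR 2.6.1d, featureCounts 1.5.0-p3, DESeq2 1.20.0, edgeR 3.24.3 and GRCh38 were used. The annotation release and the strand setting are not given in the sources used here, so overlapping genes may share counts: of 124 named genes 43 overlap another and 31 one on the opposite strand.

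All 24 libraries were fitted together in edgeR 4.0.16 (R 4.3.3, limma 3.58.1) after filtering low counts, with TMM scaling, a mean per group and a quasi-likelihood test with Benjamini-Hochberg adjustment over 19952 genes at 0.05. A standard error is the log2 fold change divided by the square root of the F statistic. CPM are counts scaled to a TMM-adjusted library of 1000000 counts. Alternatives were DESeq2 1.42.0, other scaling factors, other filters on low counts, a replicate block, a 1.5-fold minimum, the mitochondrial genome left out, the 8 libraries alone and each library left out. The WT low oxygen libraries 1 and 3 left out and the scaling by gene length (a smooth trend on length in each library) were alternatives chosen after seeing the data.

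On simulated counts for 19952 genes with 50 changed at each fold, the oxygen comparison found 36% at 1.25-fold, 76% at 1.5-fold, 80% at 2-fold and 96% at 4-fold, and 5.88% of its calls were false. The interaction with WT found 16%, 62%, 70% and 96%, with 6.15% false. The simulation changed few genes and had no trend with gene length and no deviant library. Its rates may not hold for the real comparison, where 10788 genes were called.

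Gene lists (37 lists, 980 genes, 958 of them matched by symbol) and the members described were chosen with earlier results of these data known. Genes named by rule, among those with at least 5 CPM, were the 12 protein-coding and 5 long non-coding genes with the largest changes each way, 6 genes with the largest interactions each way and 2 members of each list. Those named for the largest changes also had to be called and to show no overlap between normoxia and low oxygen libraries. The gap between their groups was thus set by the choice and is a description only. Other list members named were chosen after their values were seen, and a few members are not reported here. Intervals and floors cover counting error only.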

Additional observations from a re-analysis of the deposited data

Results flagged for a closer look

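In the MIR210HG-KO libraries, 80 groups of 4 values were screened for a library far from the other 3 (gap over range above Dixon's 0.829), and 6 stood out. Chance gives about 1 in 20 groups. In normoxia library 3, PDF was at 11.9 CPM, with the others between 20.7 and 21.2 CPM, and MT-ND3 at 1156 CPM, with the others between 853.4 and 889.9 CPM. This is also the library that the second principal component separated. NME1 was at 92.6 CPM in normoxia library 4, with the others between 102.6 and 103.2 CPM. FOS was at 17.5 CPM in low oxygen library 4, with the others between 13.9 and 14.1 CPM. DARS-AS1 was at 0.960 CPM in normoxia library 2, with the others between 0.447 and 0.492 CPM, and at 7.68 CPM in low oxygen library 1, with the others between 8.89 and 9.06 CPM.

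The oxygen response differed from that of WT by a test of the interaction for these genes, which had the largest differences among those with at least 5 CPM (log2 scale). It was higher in MIR210HG-KO cells for CPNE7 (4.67), CHAC1 (2.27), CYBA (2.09), AMPD3 (1.82), STC1 (1.64) and DOK3 (1.58). It was lower for C11orf96 (-2.70), PCK1 (-2.26), HSPA5 (-2.09), ARC (-2.05), GADD45B (-1.97) and HMOX1 (-1.97). CPNE7 rests on 1 count in normoxia MIR210HG-KO libraries, and CYBA went from 0.504 to 0.650 CPM in low oxygen.

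Against MIR210-KO the largest higher differences were CPNE7 (4.27), AMPD3 (2.08), NUPR1 (2.02), CHAC1 (1.56), ADM2 (1.56) and CYBA (1.48). The largest lower ones were PSMD5 (-1.60), PLA2G16 (-1.20), ZNF467 (-1.14), ZNF331 (-1.06), NMNAT2 (-1.05) and DPYSL4 (-0.95).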

How the results depend on the processing

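Calls of at least a 1.5-fold change left 978 genes higher and 975 lower for the oxygen response of MIR210HG-KO cells, 51 and 96 for the interaction with WT, and 13 and 1 for that with MIR210-KO. For the last, leaving out 1 library gave 286 to 654 higher and 166 to 452 lower genes, with both highest values without normoxia MIR210HG-KO library 3. DESeq2 gave 664 higher, and scaling by gene length gave 493 lower. Leaving out 1 library gave 4601 to 5292 higher and 5303 to 5618 lower for the oxygen response, and 1736 to 2324 and 2100 to 2756 for the interaction with WT. Upper quartile factors turned the split of calls for the interaction with WT from 45.6% higher to 55.8%, and testing all genes without a filter turned that with MIR210-KO from 57.3% to 42.1%. The median of the fibroblast markers turned from -0.31 to 0.34 when at least 1 CPM in 4 libraries was required. Length scaling turned the sign of small medians: autophagy from -0.021 to 0.093, lipid droplets from -0.034 to 0.061, fatty acid synthesis from -0.004 to 0.013 and miR-210 targets from -0.055 to 0.058. The median of all tested genes moved from 0.027 to 0.145, so these lists stayed below it in both fits. Without normoxia library 3 the autophagy median was 0.038, that of lipid droplets -0.094 that of the unfolded protein response 0.051, that of the G2 and mitosis genes 0.060 and that of the BCL2 family 0.063. A tally pooled the values of genes named by the fixed rule alone, over all alternatives, the oxygen response and both interactions. Of these values 2776 kept their status, called or not called. A call was lost by 44 and gained by 12, and 0 of the called values changed direction. Other list members are not in this tally.

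The labels number the libraries but do not say whether same-numbered normoxia and low oxygen libraries were paired. Those libraries did not deviate together (correlations -0.039, -0.012, -0.115 and 0.001, against -0.032 to 0.067 for differently numbered ones). Such values cannot show that the libraries were unpaired. A replicate block gave 5116 higher and 5642 lower genes for the oxygen response, 2083 and 2418 for the interaction with WT, and 369 and 284 for that with MIR210-KO.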
